A study of Homo sapiens with 11 samples.

Results

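JMJD1C binding at its own gene and at 5 related demethylase genes was read from a chromatin immunoprecipitation and sequencing (ChIP-seq) library of Kasumi-1 cells. The genes are JMJD1C itself, its close relatives KDM3A and KDM3B, and KDM4A, KDM4B and KDM4C. A peak was taken as belonging to a gene window when its summit, the position of highest tag coverage, lay in the gene or within 50 kb of either end. By this rule 35 of the 36191 peaks of the library were found, without use of their tag numbers or fold enrichments. The series has 11 libraries from 4 acute myeloid leukaemia lines, 4 of JMJD1C, 4 of the transcription factor LYL1 and 3 of input DNA. Kasumi-1 is an established myeloblast line that carries the RUNX1-RUNX1T1 fusion, and the library analysed was made from cultured cells for which the labels name no treatment. JMJD1C was precipitated with a serum that the submitters raised against its N-terminal part. The other 10 libraries were not analysed here, among them the Kasumi-1 input, so each value comes from 1 library and has no spread between replicates. No test between conditions was possible, and intervals cover counting error only. The library held 29330355 tags, of which 19897991 remained once duplicates at a position were dropped by the caller.

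The genes code for JmjC-domain enzymes, which need iron and 2-oxoglutarate and oxidise methyl groups away from lysines of histone tails. Methylation of lysine 9 of histone H3 (H3K9) marks silent chromatin, and its removal is linked with gene activation. KDM3A and KDM3B remove the mono- and dimethyl marks. JMJD1C, also called KDM3C, has the same fold of the catalytic domain, and how far it acts on H3K9 itself has been debated. The KDM4 enzymes act on di- and trimethylated H3K9 and also on trimethylated lysine 36 of histone H3.

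Peaks were called at the starts of 5 of the 6 genes, JMJD1C included (5 genes with a summit within 2 kb of the start). For scale, 4.76% of positions spaced 1 kb apart on the same 6 chromosomes had a summit within 2 kb, a share that counts all positions and not gene starts. KDM4B was the exception. The gene starts are the ends of the hg19 spans used, which are given to 1 kb, so distances to them carry that error. All 6 summits at starts lay 56 to 797 bp on the transcribed side of the start used. The sequences before the 6 starts are shown as the promoters next to these peaks and, for KDM4B, of the start without one. By these positions no summit lies in the bases shown, although the distances are within the error of the starts. They are the 250 bases before the start in RefSeq (GRCh38.p14), written 5′ to 3′ on the strand of the gene (+ or - after the coordinates). Capitals mark matches on either strand to 9 short words known as binding motifs. These are CCAAT, which is bound by the factor NFY, the word GGGCGG, which is the GC box of SP1, and the word CCGGAAG, which is typical of ETS factors. Further words were CACGTG, an E-box of MYC and its relatives, and CAGCTG, an E-box of other basic helix-loop-helix factors. RUNX factors were represented by the word TGTGGTT, factors of the GATA family by the word AGATAA, the factor CREB by the word TGACGT and the factor NRF1 by the word GCATGCG.
JMJD1C (chr10:63465978-63466227, -): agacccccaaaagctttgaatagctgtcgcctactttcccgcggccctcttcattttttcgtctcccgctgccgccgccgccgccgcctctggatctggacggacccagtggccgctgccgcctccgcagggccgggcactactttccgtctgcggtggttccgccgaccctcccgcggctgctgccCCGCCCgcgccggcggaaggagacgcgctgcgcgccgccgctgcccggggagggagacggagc
KDM3A (chr2:86441121-86441370, +): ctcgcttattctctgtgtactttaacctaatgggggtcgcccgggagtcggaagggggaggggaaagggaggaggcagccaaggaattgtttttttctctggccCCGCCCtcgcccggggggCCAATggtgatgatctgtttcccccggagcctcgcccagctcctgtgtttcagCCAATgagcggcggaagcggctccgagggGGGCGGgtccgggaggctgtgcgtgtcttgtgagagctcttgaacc
KDM3B (chr5:138352435-138352684, +): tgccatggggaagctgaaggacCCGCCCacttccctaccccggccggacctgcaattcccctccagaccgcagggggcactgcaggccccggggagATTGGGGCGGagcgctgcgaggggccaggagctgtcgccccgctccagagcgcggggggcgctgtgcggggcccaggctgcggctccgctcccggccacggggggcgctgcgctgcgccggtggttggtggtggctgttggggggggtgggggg
KDM4A (chr1:43649899-43650148, +): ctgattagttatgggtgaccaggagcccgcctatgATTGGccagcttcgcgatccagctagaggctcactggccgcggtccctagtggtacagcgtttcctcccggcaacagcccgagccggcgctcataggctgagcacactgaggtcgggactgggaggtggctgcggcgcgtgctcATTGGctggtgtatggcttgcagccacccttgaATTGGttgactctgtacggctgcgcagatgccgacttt
KDM4B (chr19:4968863-4969112, +): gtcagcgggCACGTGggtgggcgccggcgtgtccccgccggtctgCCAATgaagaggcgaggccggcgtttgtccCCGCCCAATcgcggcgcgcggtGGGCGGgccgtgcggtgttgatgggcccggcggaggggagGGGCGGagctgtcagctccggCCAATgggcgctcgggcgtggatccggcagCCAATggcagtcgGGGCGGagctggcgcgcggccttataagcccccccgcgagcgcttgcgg
KDM4C (chr9:6757723-6757972, +): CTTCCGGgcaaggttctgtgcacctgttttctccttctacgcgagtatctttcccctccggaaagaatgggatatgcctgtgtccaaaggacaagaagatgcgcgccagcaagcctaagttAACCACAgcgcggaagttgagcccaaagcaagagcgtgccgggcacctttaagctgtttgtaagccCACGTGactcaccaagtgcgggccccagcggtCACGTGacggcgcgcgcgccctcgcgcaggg

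All 6 promoters held more CG dinucleotides than the median promoter. Over 300 bases, the 250 shown plus the first 50 transcribed ones, JMJD1C had 42 CG, KDM3A 23, KDM3B 30, KDM4A 21, KDM4B 43 and KDM4C 29, against a median of 14 over 35116 RefSeq promoters. As many CG or more were held by 5.85% of all promoters for JMJD1C and 4.98% for KDM4B. The shares were 22.4% for KDM3B, 24.2% for KDM4C, 35.8% for KDM3A and 39.5% for KDM4A. KDM4B, with no peak at its start, had the most CG of the 6. CCAAT was found 2 times in KDM3A, 1 time in KDM3B, 3 times in KDM4A and 4 times in KDM4B, and 34.6% of all promoters hold it. The GC box was found in JMJD1C, KDM3A, KDM3B and KDM4B, and 45.0% of all promoters hold it. One GC box of KDM3B lies in the transcribed bases that are not shown. In KDM3B and KDM4B a CCAAT and a GC box share bases, so some runs of capitals hold both. The words of ETS factors (in 10.3% of all promoters) and RUNX factors (in 4.27%) were found in KDM4C and in no other of the 6. CACGTG, present in 7.26% of all promoters, was found 2 times in KDM4C and 1 time in KDM4B. CAGCTG and the words of GATA, CREB and NRF1 were found in none of the 6, and 18.0%, 10.3%, 7.98% and 3.91% of all promoters hold them. These matches are of letters only.

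**Figure D1:**
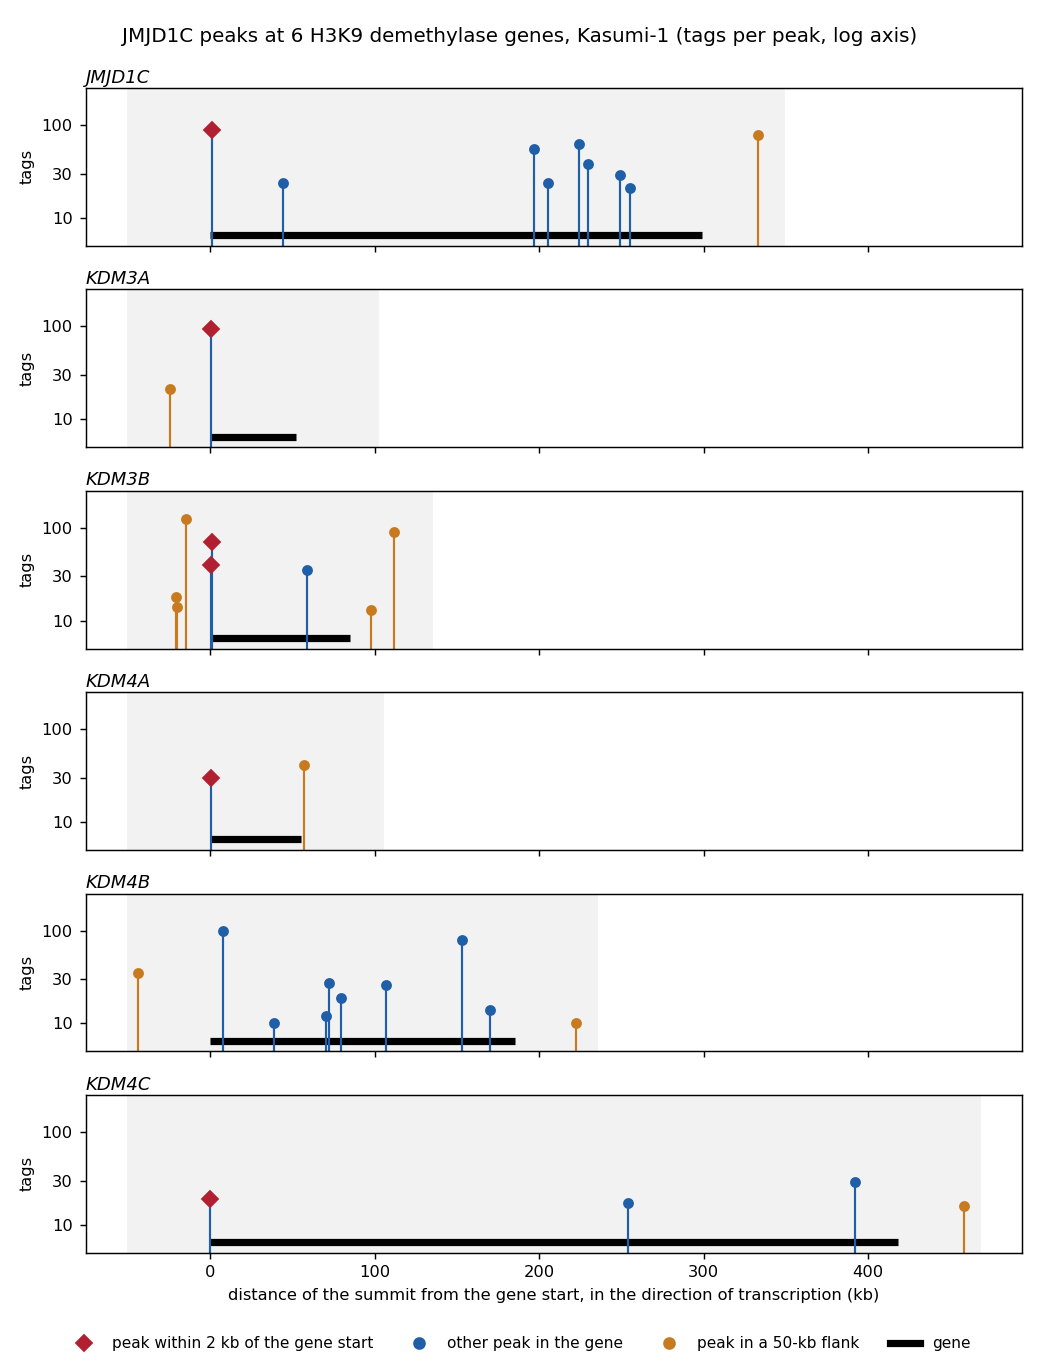
Position and tag number of the 35 peaks. The horizontal axis is the distance of the summit from the gene start in kb along the direction of transcription, the vertical axis is tags per peak on a log scale, black bars are the genes and grey areas the windows. Diamonds mark the 6 peaks within 2 kb of a start, found at every gene but KDM4B, and the JMJD1C peaks farther in form a run between 196.9 and 255.1 kb.

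The JMJD1C gene, which lies on the minus strand of chromosome 10 from 64.927 to 65.226 Mb (hg19), had 9 peaks in its window (all peak positions are hg19). Of these, 8 lay in the gene and 1 in the flank beyond its end. The peak at the start (65224933 to 65225974) was the richest in tags of the window, with 88 tags (95% exact Poisson interval 70.6 to 108), and its summit lay 768 bp inside the gene. Its fold enrichment, which is the height at the summit over the library's own signal in the surrounding 10 kb as given by the authors' peak caller, was 8.04. The summit height, recovered from fold and background, was 15 tags, and 39.2% of all peaks in the list were as high or higher. So the start of JMJD1C carried a long peak of 1042 bp, high in tags and below the list's median fold of 10.87. The caller's background includes the tags of the peak itself, and here 88 of the 212 tags in 10 kb (41.5%) were the peak's own.

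Within the gene, JMJD1C peaks gathered far from the start. Behind the start came a peak of 24 tags at 44.4 kb, and then 153 kb without a peak. A run of 6 peaks followed between 196.9 and 255.1 kb, with 230 tags together. The tallest of them, from 65001291 to 65002127, held 63 tags (48.4 to 80.6) at a fold of 12.36, the highest fold of the JMJD1C window, and a summit height of 21 tags. The first of the run, from 65028519 to 65029323, held 55 tags (41.4 to 71.6) at a fold of 9.29. The other 4 of the run held 21, 24, 29 and 38 tags at folds of 7.52, 9.01, 7.24 and 9.47. The run therefore combined peaks near the list's median of 30 tags with a pair that stood above it. This run was singled out after its values were seen.

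RefSeq gives 2 more starts for JMJD1C in GRCh38.p14, one 55.9 kb upstream and one 196.7 kb downstream of the start used, as distances within that build. In the hg19 peak list, summits lay 54.9 and 55.4 kb upstream of the start used, just outside the window, and the summit of the 55-tag peak lay 196.9 kb downstream of it. The upstream pair held 62 tags (47.5 to 79.5) at a fold of 11.63 and 23 tags at a fold of 4.8. Distances of different builds were not converted, and no peak was assigned to these starts. The gene REEP3 overlaps the JMJD1C gene at its upstream end in RefSeq, and the antisense RNA gene JMJD1C-AS1 overlaps it as well. These overlaps are with the whole RefSeq gene, and overlap with the hg19 span used here was not examined. The remaining JMJD1C peak lay 34.1 kb beyond the gene's end, from 64892591 to 64893701, with 77 tags (60.8 to 96.2) at a fold of 7.62. It lies on the side where NRBF2 is the next protein-coding gene.

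The KDM3 relatives each had a peak at the start and differed in the rest of the window. KDM3A, a hypoxia-induced demethylase on chromosome 2 (86.668 to 86.72 Mb, plus strand), had 2 peaks. The peak at its start, from 86667735 to 86668611, held 94 tags (76.0 to 115) at a fold of 12.56 and a height of 21 tags. It was the richest in tags among the 6 peaks at gene starts, and 11.4% of all peaks in the list held as many or more. The other peak lay 24.5 kb upstream and held 21 tags (13.0 to 32.1) at a fold of 12.49. No summit fell in the remaining 51.8 kb of the gene.

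KDM3B, a demethylase of the same type on chromosome 5 (137.688 to 137.773 Mb, plus strand), had 8 peaks in 185 kb. A pair of peaks with 62 bp between them lay at its start. The peak from 137688019 to 137688371 held 40 tags (28.6 to 54.5) at a fold of 16.23, the highest fold and the greatest summit height, 26 tags, among the 6 peaks at gene starts. Its partner, from 137688434 to 137689515, held 70 tags (54.6 to 88.4) at a fold of 7.1 and a height of 12 tags. The narrow peak thus had fewer tags and the higher summit. One more peak lay in the gene, 58.9 kb from the start, with 35 tags at a fold of 11.

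The flanks of KDM3B held the other 5 of its peaks, among them the most tag-rich of all 35. That peak, from 137672902 to 137674258, lay 14.9 kb upstream and held 123 tags (102 to 147) at a fold of 7.7. Only 7.01% of the list held as many tags, while 83.6% had as high a fold. A downstream peak from 137799599 to 137801122 held 89 tags (71.5 to 110) at a fold of 9.62. The 3 others held 13 to 18 tags, and those of 18 and 14 tags lay side by side, 20.6 and 20.2 kb upstream of the start. In RefSeq the next protein-coding genes are FAM53C upstream and REEP2 downstream of KDM3B, and no flank peak was assigned to a gene.

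The start peaks of KDM4A and KDM4C held fewer tags than those of the KDM3 genes and JMJD1C. KDM4A, a demethylase that also carries Tudor domains, on chromosome 1 (44.116 to 44.171 Mb, plus strand), had a start peak from 44116070 to 44116573 with 30 tags (20.2 to 42.8) at a fold of 8.18. KDM4C, on chromosome 9 (6.758 to 7.176 Mb, plus strand), had a start peak from 6757980 to 6758488 with 19 tags (11.4 to 29.7) at a fold of 7.58. Its summit height of 6 tags was among the lowest of the list, where 99.6% of peaks were as high or higher. KDM4B, known as a cofactor of the oestrogen receptor in breast cells, on chromosome 19 (4.969 to 5.154 Mb, plus strand), had no summit nearer to its start than 7.57 kb. The intervals of KDM4A and KDM4C overlap, and both lie under those of JMJD1C, KDM3A and the longer KDM3B peak. The interval of the narrow KDM3B peak overlaps that of KDM4A and, at 28.6 tags, the upper end of that of KDM4C. By fold the order did not hold. The folds of KDM4A and KDM4C compare with 8.04 at JMJD1C and 7.1 at the longer KDM3B peak. They lay below 12.56 at KDM3A and 16.23 at the narrow KDM3B peak.

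Inside KDM4B were the peaks of highest fold among the 35. The peak from 5121985 to 5122498, 153 kb from the start, held 80 tags (63.4 to 99.6) at a fold of 27.87 and a height of 39 tags. The peak from 4976267 to 4976833, 7.57 kb from the start, held 98 tags (79.6 to 119) at a fold of 26.8 and a height of 50 tags, the tallest summit of the 35. Only 1.91% and 2.45% of all peaks had as high a fold. The other 8 peaks of the window were small, with 10 to 35 tags and folds of 8.12 to 17.65. Of these, 3 lay close together, between 70.1 and 79.5 kb from the start, with 58 tags together. KDM4B thus had no called peak at its start and a pair of strong peaks within the gene, one of them near its start.

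KDM4C, known as GASC1 for its amplification in squamous carcinomas, had 4 peaks in the longest window, 518 kb. After the start peak the next summit lay 254 kb into the gene, with 17 tags (9.90 to 27.2) at a fold of 12.34. The peak from 7150090 to 7150539, 392 kb from the start, held 29 tags (19.4 to 41.6) at a fold of 23.13 and a height of 15 tags. The last lay beyond the end with 16 tags (9.15 to 26.0) at a fold of 13.88. The peak with the high fold held fewer tags than the median peak of the list. KDM4A had 1 more peak, 57 kb from its start and beyond its end, with 41 tags (29.4 to 55.6) at a fold of 5.87, the lowest fold of the 35. It lies on the side where ST3GAL3 is the next protein-coding gene.

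**Figure D2:**
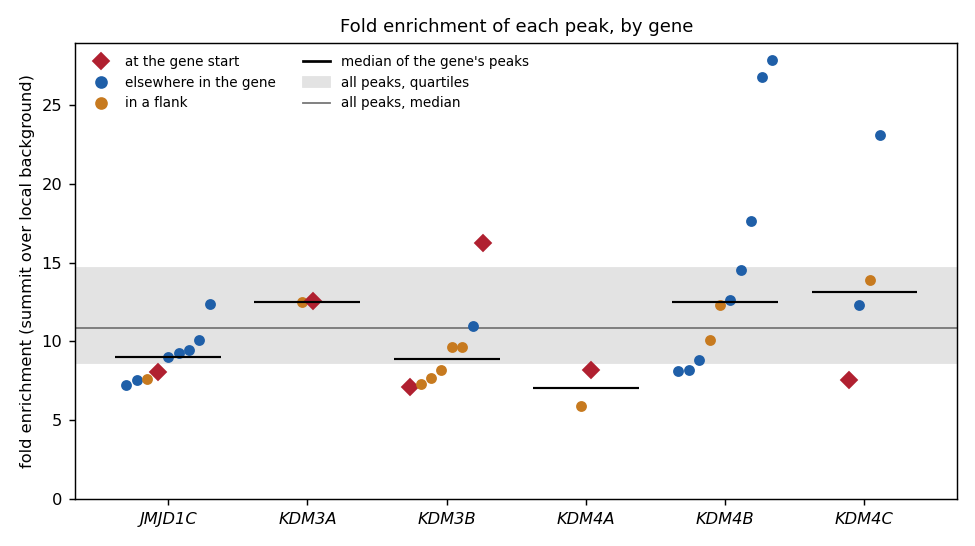
Fold enrichment of each peak by gene. The vertical axis is the authors' fold enrichment (summit over local background), black lines are medians of a gene's peaks, and the grey band and line are the quartiles and the median of all 36191 peaks. JMJD1C peaks sit between 7.24 and 12.36, KDM4B reaches 27.87, and 4 of the 6 peaks at gene starts lie under the list's lower quartile of 8.62.

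As a group the 35 peaks were near the list in median tags and median height. Their median of 29 tags compares with 30 over the whole list, and their median summit height of 12.0 tags with 12.0. Of the 35, 16 had a fold of at least 10 (45.7%, exact Clopper-Pearson interval 28.8% to 63.4%), against 60.1% of the list, which lies inside that interval. At least 20 was seen in 3 of the 35 (8.57%, 1.80% to 23.1%), against 9.84% of the list. All 3 lay in KDM4B and KDM4C. The median fold was 9.62 for the 35 and 10.87 for the list. Among genes the medians were 9.01 for JMJD1C, 12.5 for KDM3A, 8.9 for KDM3B, 7.03 for KDM4A, 12.5 for KDM4B and 13.1 for KDM4C.

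The 6 peaks at gene starts held a median of 55 tags, against 26 tags for the other 29. Their lengths had a median of 693 bp, against 463 bp, and their folds a median of 8.11, against 9.65. By summit height the medians were 13.5 and 12.0 tags. Tags of the whole peak over its background had medians of 4.21 at starts and 4.19 elsewhere. Outside the peak the medians were 126 and 111 tags per 10 kb. By these medians the peaks at starts were longer and richer in tags. Their summit height and their tags over background were similar to those of the others. The ranges overlap, with 19 to 94 tags at starts and 10 to 123 elsewhere. The KDM4C start peak, at 19 tags, lay below the median of the others. The KDM3B pair counts as 2 of the 6. A few peaks rested on little. Of the 35, 6 had a score, 10 times the negative log10 of the p-value, under 60 where the caller's cutoff was 50. Of these, 5 held 10 to 14 tags. In score the 35 were near the list, with a lower quartile of 69.0 against 68.8 and a median of 106 against 106.

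The signal around the peaks differed between the genes in a way that bears on the fold. It is the number of tags outside the peak per 10 kb, which tags and score of a peak together determine. Around the 9 JMJD1C peaks it ran from 115 to 166 tags with a median of 138, above the list's median of 99.8 tags at all 9. Around the KDM4C peaks it ran from 46.8 to 74.8 with a median of at most 59.3, and 3 of the 4 had the lowest background the caller allows, so these are upper limits. The medians were 89.2 for KDM3A, 116 for KDM3B, 119 for KDM4A and 84.6 for KDM4B, where 1 peak was at the minimum. Of the 35 peaks 4 were at the minimum, against 7.72% of the whole list. Set against the median around the other peaks of the same chromosome, the signal was higher at 3 genes, JMJD1C (138 against 115 tags), KDM3B (116 against 91.5) and KDM4A (119 against 106). It was lower at KDM4B (84.6 against 112) and KDM4C (at most 59.3 against 95.7), and about the same at KDM3A (89.2 against 91.1).

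A peak of JMJD1C and a peak of KDM4C show how height and fold can part. The tallest JMJD1C peak within the gene had a height of 21 tags and a fold of 12.36, in a background of 193 tags per 10 kb. The KDM4C peak of fold 23.13 had a lower summit, 15 tags, in a background at the minimum of 73.7 tags. Fold divides height by that background, so the order of these peaks by fold is the reverse of their order by height. Folds at different genes are for this reason no ranking of binding. The part of the surrounding signal in these folds was not tested further, and no input was used.

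**Figure D3:**
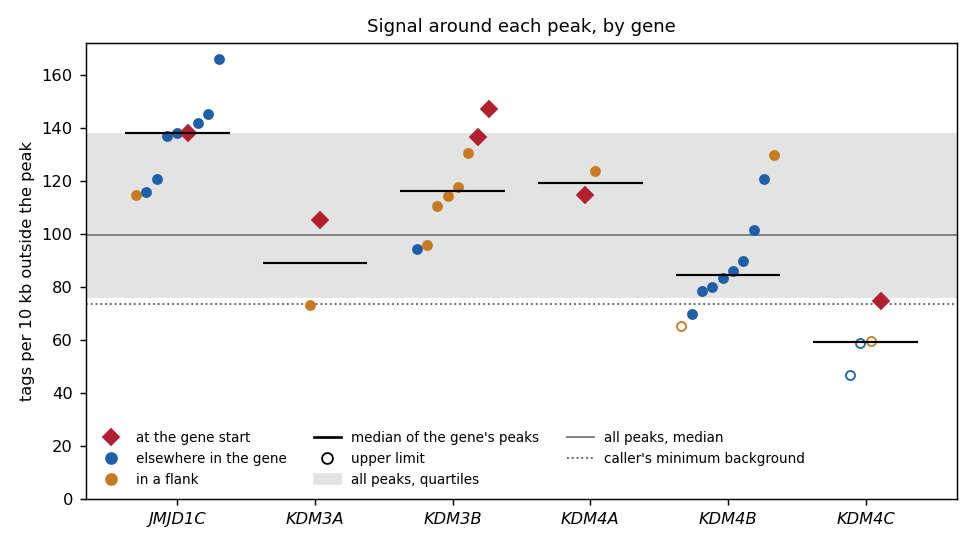
Signal around each peak by gene. The vertical axis is tags per 10 kb outside the peak, open symbols are upper limits for peaks at the caller's minimum (dotted line, 73.7 tags per 10 kb), and the grey band and line are the quartiles and the median of all peaks with a value. All 9 JMJD1C peaks lie above the list's median of 99.8 and all 4 KDM4C peaks below it.

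The 6 windows together held 20.7 peaks per Mb (exact Poisson interval 14.4 to 28.7), against 12.9 per Mb between the first and last peak of these chromosomes, a ratio of 1.60 (1.12 to 2.23). That ratio pools chromosomes of different peak density. With each window set against the density of its own chromosome, the 35 peaks compare with 25.2, a ratio of 1.39 with an interval that reaches 1 (0.967 to 1.93). Both intervals treat peaks as independent, which neighbours at 1 site are not, and the rest of a chromosome includes stretches without genes. KDM3B had the highest density, with 43.2 peaks per Mb against 10.4 on the rest of chromosome 5, a ratio of 4.14 (1.79 to 8.17). For JMJD1C it was 22.6 against 14.1 per Mb, a ratio of 1.60 (0.733 to 3.04). KDM4B, on the peak-rich chromosome 19, had 35.1 against 30.3 per Mb, a ratio of 1.16 (0.555 to 2.13). The ratios were 1.33 for KDM3A (0.161 to 4.82), 0.899 for KDM4A (0.109 to 3.25) and 0.754 for KDM4C (0.205 to 1.93). KDM3B was the only one of the 6 genes whose counting interval lay above 1, and 5 of its 8 peaks were in the flanks. Close neighbours at its start and upstream of it count as separate peaks among these 8. Its ratio is also the highest of 6, and the interval makes no allowance for that choice.

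**Figure D4:**
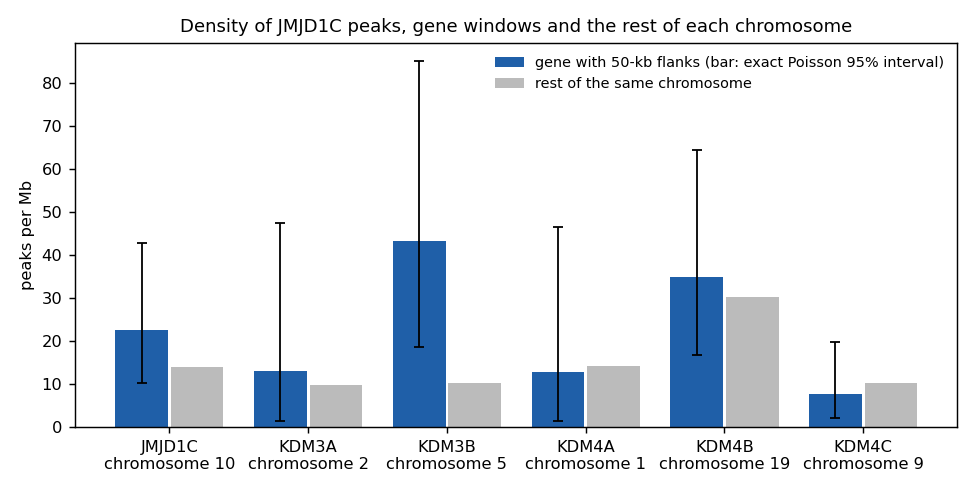
Peaks per Mb in each gene window (blue, with 95% exact Poisson intervals) and on the rest of the same chromosome (grey, between its first and last peak). The KDM3B window, at 43.2 peaks per Mb, is the one whose interval does not reach the level of its chromosome.

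Just outside the KDM4B window, 2.21 kb beyond the limit, lay a peak from 4915861 to 4917250. It held 408 tags (369 to 450) at a fold of 20.82 and a height of 105 tags. Its tags and height were above those of any of the 35, while its fold was below the 27.87 reached inside KDM4B. This outside peak lies on the side of UHRF1, which codes for a reader of hemimethylated DNA. At the other end, 1.63 kb beyond the limit and on the side of PTPRS, a peak held 52 tags (38.8 to 68.2) at a fold of 23.42. The KDM4B peak nearest to a limit from inside held 35 tags at a fold of 10.07. It lay 6.32 kb from the limit on the UHRF1 side. At KDM4C the nearest outside peak, 3.81 kb beyond the upstream limit, held 13 tags at a fold of 11.22. The nearest inside one lay at the opposite end, 9.57 kb within the downstream limit, with 16 tags at a fold of 13.88. The neighbouring genes are named from their order in RefSeq, after the peaks were seen, and none of these peaks was assigned to a gene.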

How the data were processed

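ChIP DNA of Kasumi-1 cells was sequenced by the submitters. The submitters' processing notes name hg19, Bowtie2 2.1.0 and HOMER. Peaks were called with MACS 1.4.2 on 1 library without a control, per the file headers, at a cutoff of 1e-05 on p, a fragment size of 88 bp and with duplicates at a position dropped (32.2% of all tags). For each peak the authors deposited its tag count, a score (the negative log10 of p, times 10) and a fold enrichment (a ratio to the background in 10 kb of the same library). Without a control, open or repeated DNA can raise the number of called peaks, and dropping duplicates caps the tags of narrow peaks.

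Gene spans in hg19 are those of the selection rule. The background of a peak was taken as the expected number of tags that gives its score under a Poisson law, over the length of the peak or 176 bp, whichever was longer. It was within 0.05 of a whole number or 0.15 of the minimum at all 35 peaks. The summit height is fold times the background in 1 fragment length, and came out within 0.05 of a whole number at 99.5% of the 34616 peaks of the list with a recovered background.

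The genes, windows and lists were chosen with earlier results of these data known. All 6 genes were named. Of their peaks, those at a start and those of highest fold or most tags in each window were described in full, and others were added after their values were seen. All 6 genes matched RefSeq promoters. Where several starts exist, the one whose distance to the gene's other end is nearest to the hg19 span length was used. A planned comparison of the proteins and a look at other H3K9 genes were not run, since no protein sequences or hg19 annotation were used here. Tag intervals are exact Poisson and shares exact Clopper-Pearson intervals at 95%. Alternatives in flank, score, fold and distance were tried. The software was Python 3.11.15 with pandas 2.3.3, SciPy 1.17.1, NumPy 2.4.6 and, for plots, Matplotlib 3.10.9.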

Additional observations from a re-analysis of the deposited data

How the results depend on the processing

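The 5 genes with a peak at the start stayed 5 with a distance of 1 or 5 kb, and were 4 with a score of at least 100, which removed KDM4C. The number of peaks in the windows was 25 with a flank of 10 kb, 24 with none and 50 with 100 kb. It was 19 with a score of at least 100 and 16 with a fold of at least 10, limits that also shorten the whole list. The fold limit keeps 45.7% of the 35 and 60.1% of the list. The median score was 106 in both. Per gene, the count stayed within 1.5 times its value in 21 of 36 alternatives; KDM3B had 3 peaks without its flanks. The share past the fold limit was 8.57% at a limit of 20. The median fold was 4.19 when the tags of the whole peak, not the summit, were divided by the background. The density ratio was 1.64 against all autosomes, 1.65 with a score of at least 100, 1.33 without KDM3B and 1.39 with each window against its own chromosome, the last 2 chosen after seeing the data. No paired analysis was possible because the report rests on a single library. Depth limits the weak end of the list, where member peaks rest on as few as 10 tags.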
